A study of Mus musculus with 6 samples.

Results

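The nuclear genes for subunits of respiratory complex I were examined in gastrocnemius, a calf muscle, of male transgenic and wild-type mice. The members were the 35 genes of a fixed symbol list, from Ndufa1 to Ndufv3, and all 35 were found among the 51911 genes of the count table. The transgenic mice carried HSA-PGC-1a3, in which the human skeletal actin promoter, active in skeletal muscle fibres, drives PGC-1alpha3, an isoform of the coactivator PGC-1alpha. The wild-type mice carried no transgene, and both groups keep the mouse's own Ppargc1a gene. There were 3 transgenic and 3 wild-type libraries of bulk RNA. Age and the number of animals behind a library are not given in the sources used here, so p-values measure the spread between these libraries, which may be technical. The comparison asked how the transgene changed the transcriptome of the muscle.

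Complex I oxidises NADH and passes the electrons along a flavin and a chain of iron-sulfur clusters to ubiquinone, while pumping protons across the inner mitochondrial membrane. Its catalytic core is shared with bacteria and is encoded partly in the nucleus and partly in mitochondrial DNA. Around it sit supernumerary (accessory) subunits, all nuclear. The complex is assembled from modules. The N module takes up electrons from NADH and the Q module hands them to ubiquinone; both lie in the matrix arm, and the membrane arm has a proximal and a distal part. Oxidative muscle is rich in the complex, and the longer isoform PGC-1alpha1 is a known activator of its genes. The gene symbols do not follow this division exactly. Among the 10 Ndufs and Ndufv members, Ndufs4, Ndufs5, Ndufs6 and Ndufv3 are supernumerary, which leaves 6 nuclear core subunits on the list, namely Ndufs1, Ndufs3, Ndufs7, Ndufs8, Ndufv1 and Ndufv2. Both divisions are given below.

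Total counts ran from 26190221 to 32593108 per library in transgenic muscle, and from 25532146 to 40846872 in wild-type muscle. Every member had at least 226 counts in every library. Ppargc1a averaged 2930 CPM in transgenic muscle, compared with 52.2 CPM in wild-type muscle (CPM is the count per 1e+06 counts of the library, scaled here by the trimmed mean of M-values, TMM), which fits the labels. Fast-fibre markers fell in 7 of 7 cases, with a summed level of 46700 to 51800 CPM in transgenic muscle, compared with 110000 to 118000 CPM in wild-type muscle. Endothelial markers fell in 6 of 6 cases with TMM and passed in 0 of 6 with library totals alone (328 to 349 CPM in transgenic, 409 to 439 CPM in wild type, TMM-scaled), where 6 of 7 fast-fibre markers still passed as lower. Slow-fibre markers passed in 0 of 7 cases (1230 to 2820 CPM in transgenic, 735 to 1930 CPM in wild type). Adipocyte markers passed in 0 of 6 (8.46 to 39.9 CPM in transgenic, 16.5 to 155 CPM in wild type). The 155 CPM was wild-type replicate 1, beside 21.9 and 16.5 CPM in wild-type replicates 2 and 3. Macrophage markers passed in 1 of 6 (55.0 to 67.5 CPM in transgenic, 41.5 to 69.7 CPM in wild type). Of all genes tested, 25.2% passed as lower and 25.5% as higher with TMM, and 8.73% as lower with library totals alone. No marker was at 0 in any library. The part of these cell and fibre markers in the results below was not tested. In bulk RNA, fewer cells of a type and less RNA per cell cannot be told apart.

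With TMM scaling, though not with library totals alone, most complex I subunit transcripts were lower in the transgenic muscle, by a modest amount. Among the 6 nuclear core subunits, Ndufs8 alone was higher under both scalings. All 35 members passed the filter on low counts. Of these, 25 fell, 2 rose and 8 did not pass at 0.05 (quasi-likelihood F test of edgeR, p adjusted by Benjamini-Hochberg over 16593 genes). Over all genes tested, 50.7% passed, 25.2% as lower and 25.5% as higher. The members' median log2 fold change, transgenic over wild type, was -0.31, against -0.016 for all genes, and 29 of the 35 lay below that all-gene median. For 28 of the 35 members no transgenic CPM value lay within the wild-type range or the reverse, which held for 59.6% of all genes tested. Averaged over the members, log2 CPM was 6.807, 6.800 and 6.793 in transgenic muscle, compared with 6.997, 7.172 and 7.139 in wild-type muscle. The transgenic libraries lay close together (SD 0.0073, n = 3) and the wild-type libraries were more spread (SD 0.093, n = 3), replicate 1 being the lowest of them.

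The direction of the smaller changes depended on the scaling. With library totals alone, the median of all genes moved by 0.396 to 0.38, and the members' median moved to 0.088, still below that of all genes. The members' summed counts, unscaled, made up 0.568%, 0.572% and 0.564% of each transgenic library and 0.503%, 0.545% and 0.556% of each wild-type library. On that scale 9 members were lower and 15 higher, where 61.0% of all genes passed, 8.73% as lower and 52.3% as higher. Under both scalings 9 members passed as lower, namely Ndufa8, Ndufa10, Ndufa12, Ndufb5, Ndufb8, Ndufc1, Ndufc2, Ndufs3 and Ndufs7. Under both scalings 2 members, Ndufs8 and Ndufb3, passed as higher. A further 5 members passed as lower with TMM and as higher with library totals (Ndufa6, Ndufa9, Ndufs1, Ndufv2 and Ndufv3), so no direction is given for these apart from the scaling. Of the other TMM calls, 11 were lost with library totals. All values below are with TMM unless stated.

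**Figure D1:**
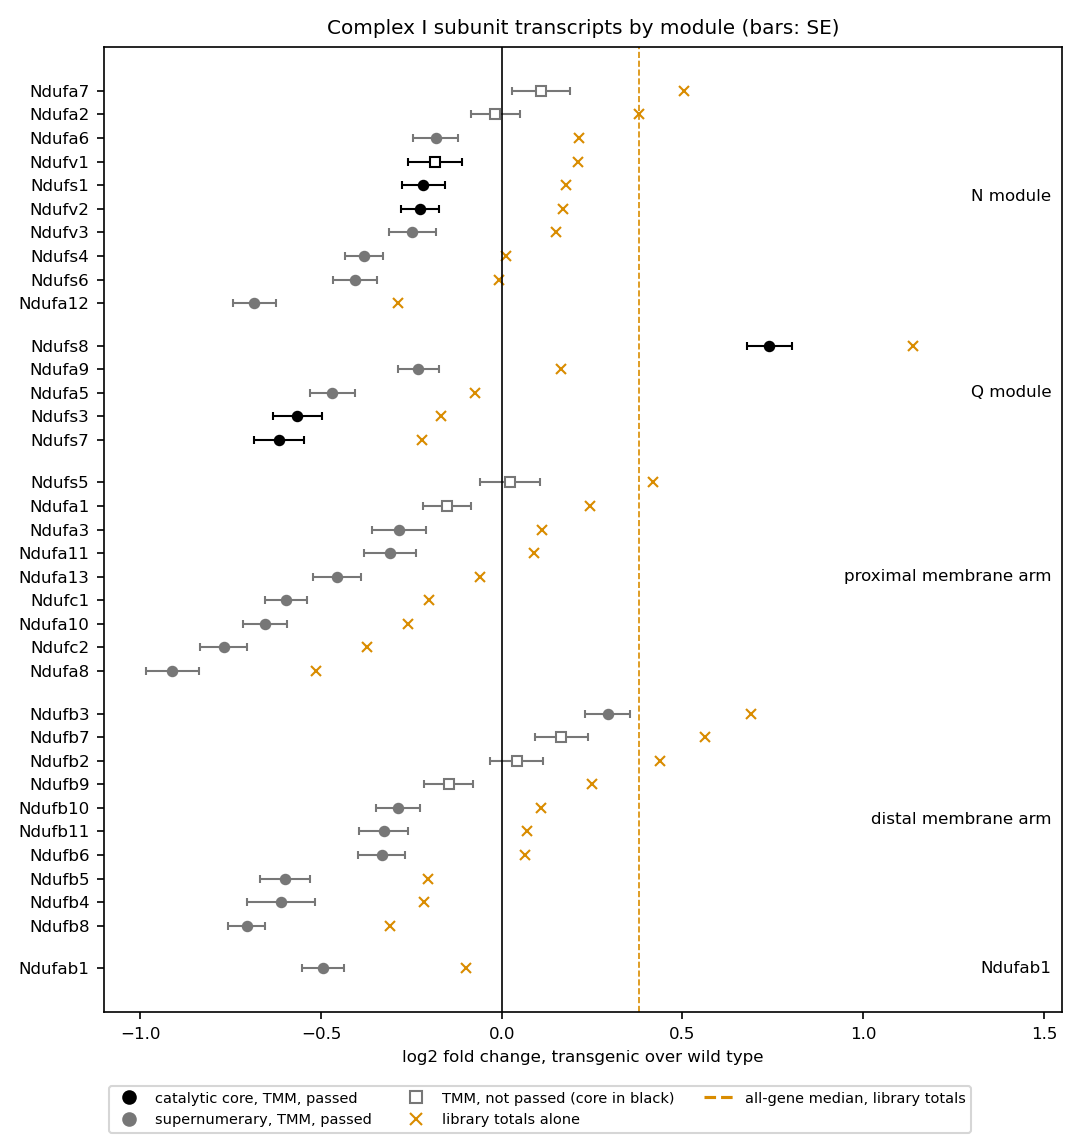
Log2 fold change (transgenic over wild type, horizontal axis) of each of the 35 subunit genes, grouped by structural module; circles and open squares are TMM values with their SE, black for catalytic core subunits, and crosses are values with library totals alone. The dashed line is the all-gene median with library totals (0.38); Ndufs8 stands at 0.74 with TMM while the other members of the Q module lie between -0.62 and -0.23.

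Ndufs8 encodes the core subunit of the Q module that carries iron-sulfur clusters on the path to ubiquinone. The gene lies on chromosome 19 (3908863 to 3912774, minus strand, GRCm38) and shares no exonic base with another counted gene. The 250 bases before its start are shown next to those of Ndufb8 and Ndufc2, which were among the members with the smallest p-values for a fall and whose windows, like that of Ndufs8, hold no annotated exon. The sequences are RefSeq's for GRCm38.p6, on the gene's strand, and capitals mark a match to the YY1-type motif described further on.
Ndufs8, chr19:3912775-3913024, minus strand: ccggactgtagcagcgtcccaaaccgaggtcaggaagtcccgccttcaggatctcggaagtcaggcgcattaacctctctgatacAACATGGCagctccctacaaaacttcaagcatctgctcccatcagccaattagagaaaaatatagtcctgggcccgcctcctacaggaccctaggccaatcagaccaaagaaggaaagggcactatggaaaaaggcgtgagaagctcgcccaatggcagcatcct
Ndufb8, chr19:44555443-44555692, minus strand: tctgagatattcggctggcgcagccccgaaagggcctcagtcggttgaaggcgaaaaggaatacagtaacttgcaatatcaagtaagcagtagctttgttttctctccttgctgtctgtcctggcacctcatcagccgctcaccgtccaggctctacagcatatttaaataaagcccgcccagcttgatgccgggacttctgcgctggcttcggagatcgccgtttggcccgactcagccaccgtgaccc
Ndufc2, chr7:97399753-97400002, plus strand: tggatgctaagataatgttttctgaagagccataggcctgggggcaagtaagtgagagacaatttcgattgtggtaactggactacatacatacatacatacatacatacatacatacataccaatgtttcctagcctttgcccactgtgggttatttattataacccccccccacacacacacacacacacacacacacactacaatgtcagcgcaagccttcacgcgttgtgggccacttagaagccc

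Ndufs8 stood at 190, 192 and 202 CPM in transgenic muscle, compared with 107, 122 and 120 CPM in wild-type muscle. Every transgenic library was above every wild-type library. Its log2 fold change was 0.74 (SE 0.06, adjusted p = 3.09e-06, edgeR), and it stayed between 0.68 and 0.78 when any 1 library was left out. As raw counts this was 5780, 5755 and 7534 in transgenic muscle, and 2481, 4245 and 2683 in the wild-type libraries. With library totals alone the value was 1.14. In level per kilobase of principal transcript, Ndufs8 ranked 9 of 35 in the transgenic libraries (198 CPM per kilobase) and 27 of 35 in the wild-type libraries (118 CPM per kilobase). Of its neighbours, Tcirg1, 1729 bases away, stood at -0.16 on the log2 scale and did not pass (SE 0.10, adjusted p = 0.203). Aldh3b1, 716 bases away, was expressed at 2.38 CPM in transgenic muscle, compared with 1.66 CPM in wild-type muscle and rose by 0.52 (SE 0.19, adjusted p = 0.0350). These neighbours were looked up after the value of Ndufs8 was seen.

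The other core subunits of the Q module moved the opposite way. Ndufs7 carries cluster N2, the last cluster before ubiquinone, and had 184, 195 and 182 CPM in transgenic muscle, compared with 260, 313 and 287 CPM in wild-type muscle. It fell by 0.62 on the log2 scale (SE 0.07, adjusted p = 2.96e-05, edgeR). Ndufs3, a core subunit without a cluster, had 88.1, 95.7 and 90.1 CPM in transgenic muscle, compared with 123, 145 and 137 CPM in wild-type muscle. It fell by 0.57 (SE 0.07, adjusted p = 4.53e-05), and it shares 88 exonic bases with Kbtbd4 on the opposite strand. For both genes the genotypes did not overlap. Within a library, where scaling cancels, log2 CPM of Ndufs8 minus that of Ndufs7 was 0.045, -0.024 and 0.149 in transgenic muscle, compared with -1.27, -1.36 and -1.26 in wild-type muscle. The balance of these transcripts of the same module thus differed by 1.35 on the log2 scale (SD 0.087 in transgenic, against 0.050 in wild type, n = 3 each). Ndufs8 and Ndufs7 had the highest and the lowest log2 fold change of the 6 core members, so a wide gap follows from setting them against each other.

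The core subunits of the N module changed less with TMM. All passed as higher with library totals alone (Ndufv1 0.21, Ndufv2 0.17 and Ndufs1 0.18). Ndufv1, which binds NADH and the flavin, had 345, 362 and 345 CPM in transgenic muscle, compared with 355, 415 and 425 CPM in wild-type muscle. These groups overlapped, since wild-type replicate 1 lay below transgenic replicate 2, and the log2 fold change of -0.18 (SE 0.07) did not pass (adjusted p = 0.0568, edgeR). It passed at -0.27 (adjusted p = 0.00387) without wild-type replicate 1. Ndufv2, which holds an iron-sulfur cluster near the flavin, had 279, 280 and 274 CPM in transgenic muscle, compared with 317, 328 and 330 CPM in wild-type muscle, a change of -0.23 on the log2 scale (SE 0.05, adjusted p = 0.00377). Ndufs1, the largest subunit and the carrier of several clusters, had 413, 435 and 412 CPM in transgenic muscle, compared with 464, 497 and 503 CPM in wild-type muscle. Its log2 fold change was -0.22 (SE 0.06, adjusted p = 0.0116), and the call ended without transgenic replicate 1 (-0.18, adjusted p = 0.0512). Ndufs1 shares 489 exonic bases with the non-coding Ino80dos and 9 with Eef1b2, counted without strand. Ndufv1 lies 94.6 kilobases from Ndufs8 on the same strand of chromosome 19, and within a library Ndufs8 minus Ndufv1 was higher by 0.92 in the transgenic libraries (-0.86, -0.92 and -0.77, against -1.72, -1.76 and -1.83 in wild type).

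**Figure D2:**
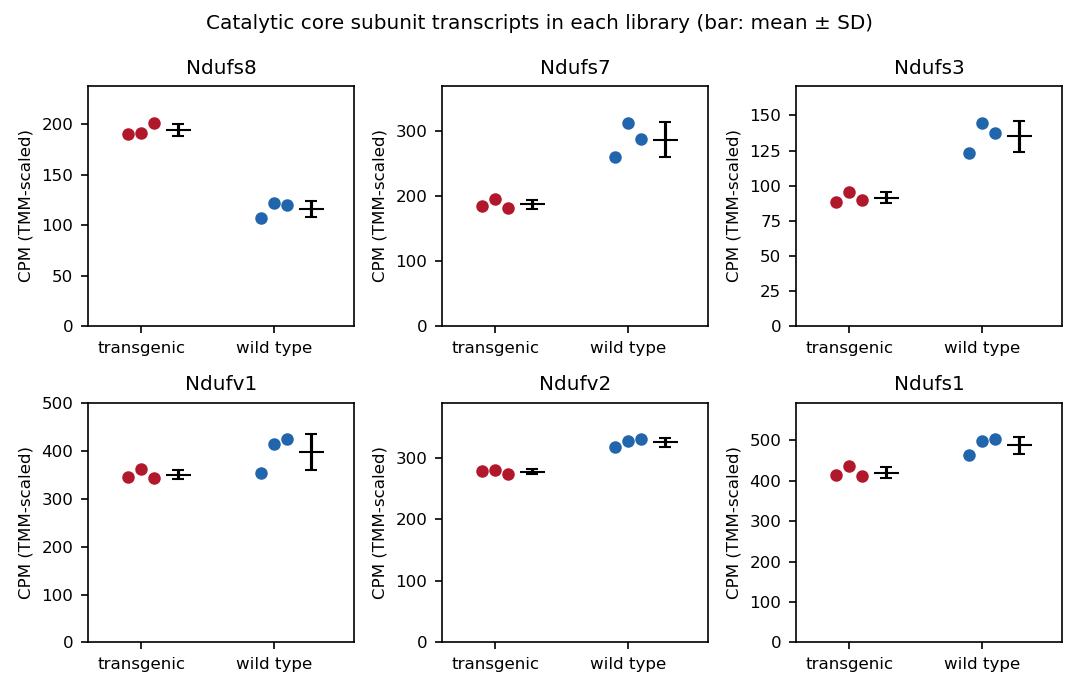
CPM after TMM scaling (vertical axis, from 0) of the 6 nuclear core subunit genes in each transgenic (red) and wild-type (blue) library, with the mean and SD beside the points. Ndufs8 is at 190 to 202 CPM in the transgenic and 107 to 122 CPM in the wild-type libraries, and Ndufs7 at 182 to 195 and 260 to 313 CPM.

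Set against the other subunits as a group, the Ndufs and Ndufv genes were slightly less reduced. Of these 10, 7 fell and 1 rose with a median of -0.24, and of the 25 Ndufa, Ndufb, Ndufc and Ndufab1 genes 18 fell and 1 rose with a median of -0.33. The mean log2 CPM of the first group minus that of the second was 0.407, 0.438 and 0.419 in transgenic muscle, compared with 0.283, 0.278 and 0.295 in wild-type muscle. That difference of 0.14 does not move with the scaling of a library, and the genotypes did not overlap. By the biochemical division, 4 of the 6 core subunits fell and 1 rose (median -0.22), and 21 of the 29 supernumerary subunits fell and 1 rose (median -0.33). These counts are with TMM. With library totals alone, 2 core subunits passed as lower and 4 as higher, and 7 supernumerary subunits as lower and 11 as higher. The Ndufs and Ndufv genes then had 2 lower and 6 higher, and the others 7 lower and 9 higher. Core minus supernumerary was 1.20, 1.28 and 1.23 in transgenic muscle, compared with 1.08, 1.08 and 1.09 in wild-type muscle, a difference of 0.15.

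Both differences between means rested largely on Ndufs8. The medians were not recalculated without it. With that gene left out, a choice made after its value was seen, the Ndufs and Ndufv genes exceeded the others by 0.355, 0.386 and 0.356 in transgenic muscle, compared with 0.333, 0.326 and 0.344 in wild-type muscle, a difference of 0.031. In that comparison the genotypes still did not overlap. For the biochemical core the difference became -0.030, and the groups overlapped (1.25, 1.34 and 1.26 in transgenic, 1.31, 1.31 and 1.32 in wild type). The matrix arm against the membrane arm, 15 genes against 19, differed by 0.11. The values were 0.535, 0.557 and 0.558 in transgenic muscle, compared with 0.449, 0.441 and 0.432 in wild-type muscle. Ndufs8, at 0.74, had the highest log2 fold change of the 15 matrix-arm genes. The arm difference includes Ndufs8 and was not recalculated without it, so it is not shown to be separate from that gene. These differences are descriptions over chosen genes and carry no p-value.

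**Figure D3:**
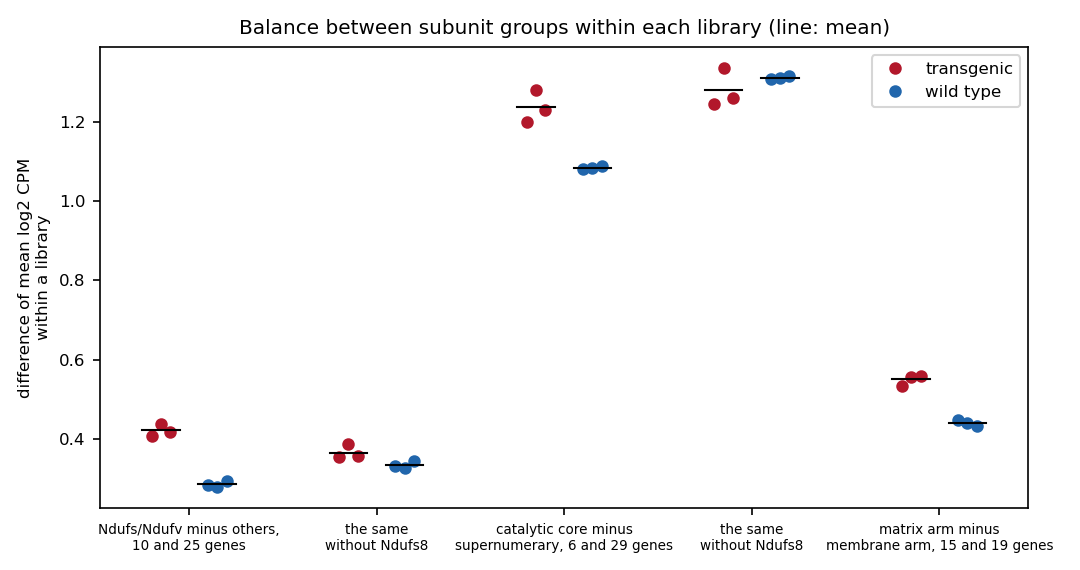
Difference between the mean log2 CPM of pairs of subunit groups within each library (vertical axis), for transgenic (red) and wild-type (blue) libraries, with lines at the means. Both core differences are larger in the transgenic libraries with Ndufs8 in the core, and shrink to 0.031 and -0.030 without it.

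Among the supernumerary subunits of the N module, 5 of 7 fell with TMM. Of all 10 N-module members, 7 passed as lower and 0 as higher with TMM. With library totals alone 1 passed as lower and 7 as higher, where 52.3% of all genes passed as higher. Ndufa12, whose paralogue Ndufaf2 holds its place during assembly, fell most, to 52.1, 46.6 and 50.8 CPM in transgenic muscle, compared with 78.3, 81.9 and 80.1 CPM in wild-type muscle. Its log2 fold change was -0.68 (SE 0.06, adjusted p = 4.20e-06, edgeR). Ndufs4, whose loss in mice causes a fatal encephalopathy, was at -0.38, the zinc-binding Ndufs6 at -0.41, Ndufv3 at -0.25 and Ndufa6, a partner of the acyl carrier protein, at -0.18. The call for Ndufa6 was weak: it ended in 5 of the 6 fits that left out a library (adjusted p up to 0.102). Ndufa2, which has a thioredoxin-like fold, had 121, 123 and 118 CPM in transgenic muscle, compared with 110, 133 and 123 CPM in wild-type muscle. These overlapped fully, at -0.017 on the log2 scale (SE 0.07, adjusted p = 0.853). Ndufa7 was at 0.11 (adjusted p = 0.287); it passed at 0.20 (adjusted p = 0.0245) without wild-type replicate 2 and was at 0.026 without wild-type replicate 1. In the Q module the supernumerary Ndufa5 was at -0.47 and the dehydrogenase-like Ndufa9 at -0.23.

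In the proximal membrane arm 7 of 9 fell and 0 rose, with a median of -0.46, beside 4 of 5 lower and a median of -0.47 in the Q module. With library totals alone the proximal arm had 4 lower and 2 higher, and the Q module 2 lower and 2 higher. Of all genes tested, 25.2% passed as lower with TMM and 8.73% with library totals alone. Ndufa8, a subunit of the intermembrane-space side held by disulfide bonds, had 112, 113 and 101 CPM in transgenic muscle, compared with 185, 219 and 210 CPM in wild-type muscle. Its log2 fold change of -0.91 (SE 0.07, adjusted p = 2.33e-06) was the lowest of the 35. Ndufc2 had 68.2, 74.4 and 69.3 CPM in transgenic muscle, compared with 114, 129 and 117 CPM in wild-type muscle (-0.77, SE 0.06, adjusted p = 3.10e-06, edgeR). Its partner in the arm, Ndufc1, had 85.8, 79.0 and 88.6 CPM in transgenic muscle, compared with 128, 128 and 127 CPM in wild-type muscle (-0.60, SE 0.06). Ndufa10, of the nucleoside kinase family, had 195, 199 and 190 CPM in transgenic muscle, compared with 285, 311 and 324 CPM in wild-type muscle (-0.65, SE 0.06). In none of these 4 genes did the genotypes overlap, and none shares an exonic base with another counted gene. Ndufa13, also known as GRIM-19, was at -0.46, Ndufa11 at -0.31 and Ndufa3 at -0.28.

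The X-linked Ndufa1 did not pass (-0.15, adjusted p = 0.0745), but passed at -0.22 (adjusted p = 0.0118) without wild-type replicate 1. Ndufs5, an intermembrane-space subunit, did not pass. Ndufs5 had 22.7, 21.6 and 21.0 CPM in transgenic muscle, compared with 19.1, 23.2 and 21.9 CPM in wild-type muscle, and its log2 fold change was 0.022 (SE 0.08, adjusted p = 0.848, edgeR). The wild-type values spanned the transgenic ones. Ndufa8 and Ndufs5 had the lowest and the highest log2 fold change of the 9 proximal-arm genes.

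In the distal membrane arm 6 of 10 fell and 1 rose (median -0.31). Ndufb8, whose protein is often used as a marker of assembled complex I on blots, had 187, 189 and 184 CPM in transgenic muscle, compared with 294, 309 and 312 CPM in wild-type muscle. The log2 fold change was -0.71 (SE 0.05, adjusted p = 1.26e-06, edgeR), and it shares 134 exonic bases with Gm20538, a locus on the same strand. Ndufb5 had 195, 180 and 179 CPM in transgenic muscle, compared with 253, 292 and 294 CPM in wild-type muscle (-0.60, SE 0.07), with 616 exonic bases shared with Mrpl47 on the opposite strand. Ndufb4 was at -0.61, Ndufb6 at -0.33, Ndufb11 at -0.33 and Ndufb10 at -0.29.

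The second member that rose, Ndufb3, belongs to the same distal arm. It had 79.0, 86.4 and 79.1 CPM in transgenic muscle, compared with 62.7, 69.8 and 66.9 CPM in wild-type muscle, without overlap. It rose by 0.29 on the log2 scale (SE 0.06, adjusted p = 0.00233, edgeR). Ndufb7 was at 0.16 (adjusted p = 0.0795), and passed at 0.23 (adjusted p = 0.0216) without wild-type replicate 2. Ndufb9, a partner of the acyl carrier protein, was at -0.15 (adjusted p = 0.0938), and passed at -0.22 (adjusted p = 0.0128) without wild-type replicate 1. Ndufb2 had 129, 130 and 134 CPM in transgenic muscle, compared with 112, 138 and 131 CPM in wild-type muscle, which overlapped (0.042, SE 0.07, adjusted p = 0.664); it shares 145 exonic bases with Gm42420 on its own strand and also overlaps Gm16272 and Braf. Ndufab1, the mitochondrial acyl carrier protein bound in both arms, was at -0.49 (SE 0.06, adjusted p = 4.27e-05).

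Levels varied far more between subunits than between genotypes. Per kilobase of principal transcript, members ran from 7.43 (Ndufab1) to 481 (Ndufb9) CPM in the transgenic libraries and from 10.5 (Ndufab1) to 533 (Ndufb9) CPM in the wild-type libraries, with medians of 146 in transgenic, against 176 in wild type. The order of the extremes was the same in both genotypes. Ndufb4 was also low, at 8.49 CPM per kilobase in transgenic muscle, compared with 13.0 in wild-type muscle. The value of Ndufab1 depends on the length it is divided by, a principal transcript of 3479 bases. By CPM alone Ndufb4 was the lowest (8.24 in transgenic, 12.6 in wild type), and Ndufab1 had 25.8 in transgenic, against 36.4 in wild type. The counting command, per the file header, did not ask for reads that map to several places, so genes with near-identical copies elsewhere in the genome can be undercounted, and levels of Ndufb4 and Ndufab1 are uncertain in this respect.

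The mitochondrially encoded subunits of the same complex, all part of its catalytic core, moved in both directions with TMM, while with library totals alone 4 passed as higher and 0 as lower. On that scale 52.3% of all genes passed as higher, with a median of 0.38, against a median of 0.39 for these mitochondrial subunits. Of 7, 5 were tested: mt-Nd4 fell (-0.32, SE 0.07, adjusted p = 0.00294, edgeR), mt-Nd5 (0.23, SE 0.07, adjusted p = 0.0180) and mt-Nd6 (0.32, SE 0.08, adjusted p = 0.00523) rose, and mt-Nd1 (-0.14) and mt-Nd2 (-0.0014) did not pass. The mt-Nd3 and mt-Nd4l genes held 7 counts or fewer in every library. The call for mt-Nd5 ended without wild-type replicate 2 (0.18, adjusted p = 0.0791) and without wild-type replicate 3 (0.20, adjusted p = 0.0812). mt-Nd5 and mt-Nd6 lie on opposite strands and were counted without strand. Averaged over the nuclear members, log2 CPM minus that of the tested mitochondrial ones was -6.55, -6.54 and -6.64 in transgenic muscle, compared with -6.48, -6.13 and -6.16 in wild-type muscle. The genotypes did not overlap in this within-library difference, although wild-type replicate 1 lay close to the transgenic values. The nuclear subunits of complexes II to V were the nearest comparison, with 30 of 40 lower, 0 higher and a median of -0.37 under TMM, but 10 lower, 11 higher and a median of 0.029 with library totals alone. Lower under both scalings (TMM values given), Sdhc of complex II was at -0.67, Uqcrc1 of complex III at -0.72, Cox6c of complex IV at -0.64 and Atp5c1 of ATP synthase at -0.66. Complex I minus complexes II to V was -0.708, -0.720 and -0.695 in transgenic muscle, compared with -0.745, -0.761 and -0.799 in wild-type muscle, so complex I was higher relative to them by 0.061. This mean over the members includes Ndufs8 and was not recalculated without that gene.

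Assembly factors of complex I, which build the modules and are not part of the finished enzyme, moved in both directions. With TMM, 7 of 17 tested fell and 3 rose (median -0.17). The share called was 58.8%, beside 50.7% of all genes (25.2% lower, 25.5% higher). Scaled by library totals, 9 of the 17 passed as higher and 3 as lower, and their median became 0.22. Among all genes, 52.3% were called higher on that scale and 8.73% lower. Whether the list differs from all genes in these shares was not tested. Ndufaf4, which acts early on the Q module, fell to 24.0, 23.0 and 23.3 CPM in transgenic muscle, compared with 61.7, 60.8 and 53.6 CPM in wild-type muscle (-1.33, SE 0.07, adjusted p = 1.30e-07, edgeR). Ecsit, of the membrane-arm assembly complex, was at -0.75. Ndufaf5, an enzyme that modifies Ndufs7, was at -0.83 (SE 0.08). Ndufaf8, which in human cells stabilises NDUFAF5, had 31.4, 28.6 and 34.2 CPM in transgenic muscle, compared with 13.7, 15.8 and 13.7 CPM in wild-type muscle and rose by 1.12 (SE 0.09, adjusted p = 2.36e-06). The genotypes did not overlap for any of these 4 genes, and each passed in the same direction under both scalings.

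**Figure D4:**
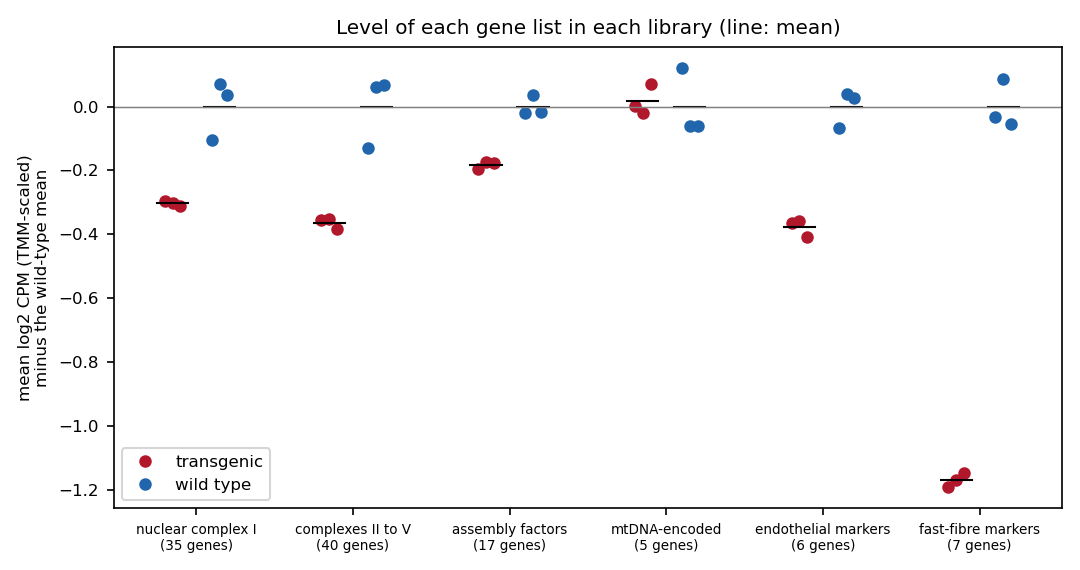
TMM-scaled mean log2 CPM of each gene list (vertical axis, minus the wild-type mean) in each transgenic (red) and wild-type (blue) library, with lines at the group means. Nuclear complex I genes lie 0.30 below wild type and complexes II to V 0.36 below, mitochondrially encoded subunits overlap, and fast-fibre markers lie 1.17 below.

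Transcription factors known to act on respiratory chain genes also changed. Yy1, which works with PGC-1alpha in mouse muscle, stood at 104, 105 and 109 CPM in transgenic muscle, compared with 72.7, 75.1 and 68.0 CPM in wild-type muscle (0.56, SE 0.06, adjusted p = 1.37e-05, edgeR). Gabpa, of the factor also called NRF-2, rose by 0.56 (SE 0.06) but shares 397 exonic bases with Atp5j on the opposite strand. Esrra, the estrogen-related receptor alpha gene, had 91.5, 105 and 97.8 CPM in transgenic muscle, compared with 141, 164 and 169 CPM in wild-type muscle, and fell by 0.69 (SE 0.08). It shares 73 exonic bases with Trmt112 on the opposite strand and 91 with Mir6990 on its own strand. The related genes Esrrg (0.37, SE 0.08, adjusted p = 0.00244, edgeR) and Esrrb (0.50, SE 0.15, adjusted p = 0.0192) rose. Nrf1 fell by 0.30 with TMM (SE 0.11, adjusted p = 0.0413), but its genotypes overlapped and it did not pass with library totals alone. Yy1, Gabpa, Esrra, Esrrg and Esrrb passed in the same direction under both scalings. Of the 12 regulators listed, 6 rose with TMM, among them Ppargc1a, the gene raised by the transgene, and 3 fell. That is 75% called, against 50.7% of all genes. Under library totals 9 passed as higher and 2 as lower, where 52.3% of all genes passed as higher and 8.73% as lower.

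RefSeq promoter windows, 250 bases before to 50 bases after the start, were matched for 32 of the 35 members; Ndufa2, Ndufb9 and Ndufs1 had none. The letters AANATGGC, a short form of the YY1 motif, occurred on either strand in 11 of 32 windows (34.4%), against 8.3% of the windows of 11241 tested genes. By call, 10 of the 24 windows of members that fell held a match, and 1 of the 8 other windows. For the NRF1 motif, a GC-rich run of 10 letters, the count was 7 (21.9%, against 9.8%), for the ERR motif AAGGTCA 3 (9.4%, against 3.2%) and for the GABP motif CCGGAAG 4 (12.5%, against 17.1%). The Sp1 motif GGGCGG was in 15 windows (46.9%, against 62.3%). By call, Sp1 was in 14 of the 24 windows of members that fell and in 1 of the 8 others. For NRF1 this split was 6 and 1, for GABP 2 and 2, and for ERR 1 and 2. Whether any motif goes with the calls was not tested. The YY1-type letters hold ATG, and in 7 of the 12 matches that ATG was the annotated start codon. These 7 matches began 22 to 38 bases after the transcript start, and they are also what a coding sequence beginning with methionine and alanine gives. The match of Ndufs8 began 165 bases before the start and was not a start codon. It is set here beside matches of 4 members that fell, with the motif in capitals on the gene's strand; those of Ndufb8, Ndufs7 and Ndufc1 are at the start codon and that of Ndufb11 is not.
Ndufs8 (rose), chr19:3912922-3912949, minus strand: tctctgatacAACATGGCagctccctac
Ndufb8 (fell), chr19:44555393-44555414, minus strand: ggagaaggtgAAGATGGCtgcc
Ndufs7 (fell), chr10:80249463-80249490, plus strand: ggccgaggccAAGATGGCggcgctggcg
Ndufc1 (fell), chr3:51408916-51408943, minus strand: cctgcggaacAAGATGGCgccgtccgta
Ndufb11 (fell), chrX:20617813-20617840, minus strand: tcaccaacacAAAATGGCgacgagaaga

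A match is a description of the letters in these windows. Neither binding nor motif use was measured, and members with a match moved in both directions.

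In the authors' deposited table, whose log2 fold changes start at 0.585 in absolute size, 9 of the 35 members appear. The authors' deposited table gives Ndufs8 at 0.721 and the other 8 with negative values, from -0.915 for Ndufa8 to -0.601 for Ndufc1. None of these 9 values in the authors' deposited table differed from the fit used here by more than 0.0472, and all had the same sign. Both fits compare the same libraries, so the likeness is not independent support. Ndufb4 (-0.61) and Ndufb5 (-0.60) exceed 0.585 in absolute size in the fit used here but are not among the 9.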

How the data were processed

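RNA was extracted with Trizol from frozen gastrocnemius and sequenced from Illumina libraries, per the labels' protocols. Per the submitters' processing notes STAR 2.5.0a and GRCm38.p6 were used for alignment, and per the file headers featureCounts 2.0.0 counted fragments. Counting ignored strand and gave a fragment to every gene it overlapped, so overlapping genes hold common fragments. Values in the deposited table are these raw counts, not normalized by the authors. The table of the authors' own comparison gives log2 fold changes and p-values by DESeq2, as deposited; its version is not given in the sources used here.

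Gene names and positions came from GENCODE M21 (GRCm38), which held 51718 of 51911 IDs. Counts were fitted over all genes in R 4.3.3 with edgeR 4.0.16 (filterByExpr, TMM, robust quasi-likelihood F test, genotype as the sole term, threshold 0.05). Each SE was obtained from the log2 fold change and its F statistic (absolute change over root F). Log2 CPM used a prior count of 2. Levels per kilobase used the length of the APPRIS principal transcript. The same fit was checked on simulated counts. That simulation changed few genes and held no shift in composition between genotypes, so it does not test the choice of scaling. Libraries of 1 genotype differed by more than sampling noise (9.92 to 24.0 chi-square units per degree of freedom) and were kept as separate samples.

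Alternatives were DESeq2 1.42.0 size factors and Wald test, upper-quartile factors, library totals, limma-voom (limma 3.58.1), a fit without robust estimation, 2 other filters, leaving out each library, and blocking on replicate number. Members, gene lists, modules and settings were chosen with earlier results of these data known. Named in full are the 6 core members and the members that rose. So are the 8 falls with the smallest p-values and the 3 members with the smallest changes. Of other lists, up to 4 by smallest p were named, and of the regulators also Esrrb, Esrrg and Nrf1.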

Additional observations from a re-analysis of the deposited data

How the results depend on the processing

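Library totals alone changed the results most: 9 members were lower, 15 higher and the median was 0.0884, a setting that also moved the median of all genes to 0.38. It turned 15 single-gene values positive: Ndufa1 0.245, Ndufa2 0.380, Ndufa3 0.112, Ndufa6 0.214, Ndufa9 0.165, Ndufa11 0.0884, Ndufb6 0.0643, Ndufb9 0.249, Ndufb10 0.110, Ndufb11 0.070, Ndufs1 0.179, Ndufs4 0.013, Ndufv1 0.212, Ndufv2 0.168 and Ndufv3 0.149. DESeq2 size factors, upper-quartile factors, the DESeq2 Wald test, limma-voom, the fit without robust estimation and both filters gave 24 to 26 members lower, 2 or 3 higher and medians of -0.311 to -0.270. Leaving out 1 library gave 23 to 28 lower, 2 to 4 higher (4 without wild-type replicate 2) and medians of -0.391 to -0.267, the lowest without wild-type replicate 1. The Ndufs and Ndufv difference stayed between 0.128 and 0.143 and the core difference between 0.132 and 0.172. Without Ndufs8 these were 0.0309 and -0.0301, and among the 21 members with no shared exon 0.222 and 0.252 (both chosen after seeing the data); the cause was not tested. The replicate numbers shared only a name (correlations of same-numbered libraries 0.101, -0.0884 and -0.21), and the replicate block gave 25 lower, 2 higher and a median of -0.304, with no member's call changed. No member had under 226 counts in a library, and 3 libraries a genotype limit the precision.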
